A study of Mus musculus with 6 samples.

Results

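The genes described here make cholesterol and fatty acids or control that synthesis, and they were followed in a mouse myeloid clone after its inducer of Evi1 was removed. A gene was included when a probe set carried its symbol alone in the platform annotation, and where a gene had several, the brightest on average across the 6 arrays was read. Of 36 listed genes 34 were measured in this way, among 18193 genes in all, and Acat2 and Nr1h2 were not analysed here. They comprised 17 enzymes of sterol synthesis, 6 genes that control SREBP or carry sterols, 8 genes of fatty acid synthesis and 3 genes of sterol sensing and efflux.

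Expression was measured on 6 arrays from total RNA of clone C6, a single clone of haematopoietic progenitor cells. All 6 samples share the C57BL/6J background with rtTA at Rosa26 and the vector pRRL.TET.Evi1.IRES.EGFP, a lentiviral construct whose codon-optimized mouse Evi1 is switched on by the drug. Evi1 encodes a DNA-binding zinc finger protein, and the series describes the clone as depending on it. The 3 withdrawal samples were taken 48 h after doxycycline had been removed, and the 3 doxycycline samples were kept under 1 µg/ml of the drug. Every culture received 4 cytokines, namely 20 ng/ml of interleukin 3 and 50 ng/ml each of stem cell factor, interleukin 11 and the ligand of Flt3. The loss of Evi1 and the absence of the drug cannot be told apart in this design.

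Cholesterol is built from acetyl-CoA through mevalonate, farnesyl diphosphate, squalene and lanosterol. When the endoplasmic reticulum holds little sterol, the escort protein SCAP carries the SREBP precursors to the Golgi, where proteases free the transcription factor domain, whereas with ample sterol the INSIG proteins hold SCAP back. SREBP-2 acts mainly on the sterol enzymes and SREBP-1c mainly on fatty acid synthesis, and both usually bind close to sites of NF-Y, the factor that recognises CCAAT. The liver X receptors (LXR) work on the other side, as sensors of oxysterols that switch on efflux pumps such as ABCA1.

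The bases upstream of the start sites are shown first for the 6 sterol enzymes that passed the test below. Hmgcs1 is shown too. Among the 14 sterol genes with a promoter it alone held TCACNCCAC, the letters searched for a sterol regulatory element (SRE). RefSeq promoters (GRCm38.p6) were found for 26 of the 34 genes, and the 250 bases before each start were searched on both strands, any start of a gene counting. The letters CCAAT occurred before a start in 14 of 14 sterol genes with a promoter and in 4 of 5 SREBP control genes. They occurred in 1 of 5 fatty acid genes and in 0 of 2 LXR and efflux genes. The share was 39.4% among the 14452 array genes with a promoter. GC boxes (GGGCGG) occurred in 13 of 14 sterol genes and in 21 of all 26 genes, against 53.4% of array genes. E-boxes (CACGTG) occurred in 3 of 14 and 6 of 26, against 8.73% of array genes. Among fatty acid genes GC boxes occurred in 2 of 5 and E-boxes in 0 of 5. The SRE letters TCACNCCAC were found in 1 of these 26 genes and in 1.27% of array genes. Only exact matches were counted, so a gene without one may still hold another form of the element. The 140 bases before the start are given 5′ to 3′ on the strand of the gene, with CCAAT, or ATTGG where it lies on the opposite strand, in capitals.
Pmvk: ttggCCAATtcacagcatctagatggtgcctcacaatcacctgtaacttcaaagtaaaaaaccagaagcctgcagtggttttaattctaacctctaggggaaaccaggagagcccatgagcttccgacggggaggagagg
Mvd: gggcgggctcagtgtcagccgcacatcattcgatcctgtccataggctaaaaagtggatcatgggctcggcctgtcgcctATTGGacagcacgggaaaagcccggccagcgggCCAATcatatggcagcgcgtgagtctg
Cyp51: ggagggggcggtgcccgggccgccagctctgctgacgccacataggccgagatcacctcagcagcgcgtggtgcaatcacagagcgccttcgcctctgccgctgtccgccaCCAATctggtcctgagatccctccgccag
Nsdhl: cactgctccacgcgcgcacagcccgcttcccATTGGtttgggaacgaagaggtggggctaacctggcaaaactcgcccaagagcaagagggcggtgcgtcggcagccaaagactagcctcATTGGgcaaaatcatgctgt
Sc5d: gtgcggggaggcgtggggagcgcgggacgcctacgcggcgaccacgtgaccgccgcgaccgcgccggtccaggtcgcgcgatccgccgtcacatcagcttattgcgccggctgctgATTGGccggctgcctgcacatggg
Dhcr7: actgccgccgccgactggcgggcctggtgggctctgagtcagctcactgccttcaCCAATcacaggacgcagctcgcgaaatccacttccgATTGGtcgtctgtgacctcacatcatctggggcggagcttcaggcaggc
Hmgcs1: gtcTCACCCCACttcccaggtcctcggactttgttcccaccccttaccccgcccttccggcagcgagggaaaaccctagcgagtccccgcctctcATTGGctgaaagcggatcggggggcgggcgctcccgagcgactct

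In the Hmgcs1 line the first capitals are the SRE letters. The stretches lie at chr3:89454401-89454540 (plus strand) for Pmvk, chr8:122443423-122443562 (minus) for Mvd, chr5:4104698-4104837 (minus) for Cyp51, chrX:72918381-72918520 (plus) for Nsdhl, chr9:42264301-42264440 (minus) for Sc5d, chr7:143830074-143830213 (plus) for Dhcr7 and chr13:119690211-119690350 (plus) for Hmgcs1. Other starts of Pmvk and Dhcr7 are in the table, and their stretches held no CCAAT. Such matches are letters in a window and were not tested for binding. Over all array genes with a promoter, 1.30% of the 5688 with CCAAT and 1.14% of the 8764 without it rose after withdrawal.

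After withdrawal, 6 of the 17 sterol enzymes rose and none fell, 1 gene of the efflux side, Abca1, fell, and none of the 6 SREBP control and 8 fatty acid genes passed. Rose and fell are used of genes with a limma adjusted p below 0.05, and all differences are log2 values of withdrawal minus doxycycline, with the limma standard error after ± (n = 3 withdrawal and 3 doxycycline arrays). Among all 18193 genes 2.77% passed, since 1.20% rose and 1.57% fell. Among the 3619 genes at least as bright as the median of the 34 genes (a mean log2 level of 9.22) 2.65% rose and 2.13% fell. The median difference was 0.34 over the 17 sterol enzymes, 0.13 over the 8 fatty acid genes, 0.001 over the 6 SREBP control genes and 0.01 over all genes.

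**Figure D1:**
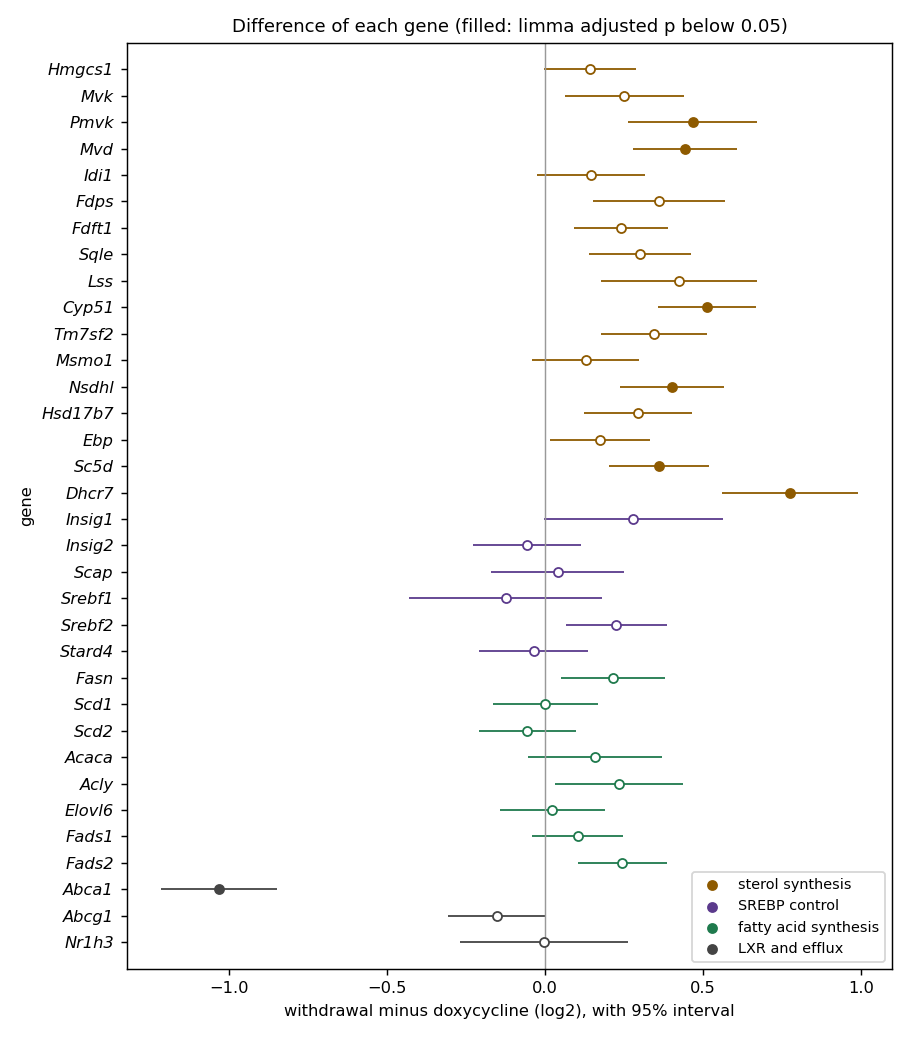
Difference between withdrawal and doxycycline arrays for each of the 34 genes (log2, points) with its 95% interval from limma (lines); filled points passed at an adjusted p below 0.05, and colours mark the 4 groups of genes. All 17 sterol enzymes lie above 0, from 0.13 to 0.77, and Abca1 stands alone at -1.03.

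The arrays had nearly equal medians, from 5.22 to 5.27. Correlations across probe sets were 0.995 to 0.998 within groups and 0.994 to 0.996 between groups, so these ranges overlapped. Withdrawal replicate 3 and doxycycline replicate 1 lay apart from the other arrays on the second principal component, which held 31.9% of the variance. The labels name no separate cultures, so the p-values reflect only how far arrays of a group differ, perhaps for technical reasons, and the number of arrays limits the precision. The probe sets of Mecom, the natural Evi1 locus, do not check the labels, since they may not read the codon-optimized transgene, and the brightest averaged 3.55 after withdrawal and 3.66 under doxycycline. Myeloid granule genes marked both groups, with 5 early granule markers at a mean log2 level of 13.80 to 13.83 per array after withdrawal and 13.42 to 13.45 under doxycycline. All 5 had higher values on each withdrawal array than on any doxycycline array, and 2 rose, Elane by 0.74 ± 0.07 (limma adjusted p = 0.00281) and Ctsg by 0.32 ± 0.06 (limma adjusted p = 0.0492). The lymphoid markers measured were dim in both groups, at 4.52 to 4.58 after withdrawal and 4.56 to 4.61 under doxycycline.

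Other marker lists moved in the same comparison. All 5 eosinophil markers rose, with mean levels per array of 10.51 to 10.62 after withdrawal and 9.75 to 9.87 under doxycycline, as did 3 of 5 mast cell and basophil markers, at 11.67 to 11.75 after withdrawal and 10.99 to 11.05 under doxycycline. In turn 4 of 5 megakaryocyte markers fell, at 7.01 to 7.14 after withdrawal and 8.20 to 8.37 under doxycycline. So did 3 of 4 red cell markers, at 6.36 to 6.56 after withdrawal and 7.52 to 7.57 under doxycycline, and 3 of 5 macrophage markers, at 9.80 to 9.86 after withdrawal and 10.14 to 10.16 under doxycycline. The part of these shifts in the sterol and efflux results was not tested, and in these bulk samples fewer cells of a type and less RNA per cell cannot be told apart. Of 5 cycling markers, Mki67 and Top2a among them, none passed, and their mean level was 11.91 to 11.94 after withdrawal and 11.84 to 11.90 under doxycycline.

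The largest difference among the sterol enzymes was that of Dhcr7, which reduces 7-dehydrocholesterol to cholesterol in the last step of a main branch of the route. Its log2 values were 9.67, 9.58 and 9.43 in the withdrawal samples and 8.68, 8.91 and 8.76 in the doxycycline samples. The groups did not overlap, each withdrawal sample lying above every doxycycline sample. The rise of 0.77 ± 0.09, a 1.71-fold difference, had a limma adjusted p of 0.00790. It passed in 5 of the 6 fits that left out 1 array, the exception being the fit without doxycycline replicate 3 (limma adjusted p = 0.0544).

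Cyp51, the demethylase that takes lanosterol into the later steps, had the most even withdrawal values, at 9.77, 9.77 and 9.76, against 9.31, 9.17 and 9.28 under doxycycline. It rose by 0.51 ± 0.07 (1.43-fold, limma adjusted p = 0.0123). A second probe set of Cyp51 rose as well, by 0.44 (limma adjusted p = 0.0320), and its dimmest one differed by 0.27 without passing. On the probe set read, Cyp51 passed in 2 of the 6 fits that left out 1 array, those without withdrawal replicate 1 or 3 (limma adjusted p from 0.0355 to 0.0716 over the 6 fits).

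Nsdhl and Sc5d act after CYP51, the first in the removal of methyl groups at carbon 4 and the second as a desaturase just before the DHCR7 step. Nsdhl had values of 9.42, 9.51 and 9.46 after withdrawal and 8.97, 9.10 and 9.12 under doxycycline, a difference of 0.40 ± 0.07 (limma adjusted p = 0.0376). Sc5d had 9.61, 9.52 and 9.57 after withdrawal and 9.27, 9.18 and 9.16 under doxycycline, a difference of 0.36 ± 0.07 (limma adjusted p = 0.0456). Both pairs of groups were apart without overlap, but both calls were lost whichever array was left out, with limma adjusted p from 0.0787 to 0.160 for Nsdhl and from 0.0975 to 0.183 for Sc5d. The call of Sc5d was also lost with the mean of its probe sets, a difference of 0.22 (limma adjusted p = 0.0710), and with arrays centred on their medians (limma adjusted p = 0.0547). The 2 other probe sets of Sc5d differed by 0.35 and -0.04 and did not pass, and the one at -0.04 was dim, with means of 4.90 after withdrawal and 4.95 under doxycycline.

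The other enzymes after lanosterol did not pass. Tm7sf2, a sterol reductase, came nearest, with 8.08, 8.16 and 7.99 in withdrawal samples and 7.67, 7.76 and 7.75 in doxycycline samples, a difference of 0.34 ± 0.07 (limma adjusted p = 0.0663). Hsd17b7, a ketosteroid reductase of the demethylation complex, differed by 0.29, Ebp, a sterol isomerase, by 0.17, and Msmo1, the methyl sterol oxidase, by 0.13. Only Msmo1 among all 17 sterol enzymes had groups that overlapped, at 10.15 in withdrawal replicate 3 against 10.16 in doxycycline replicate 3.

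Early in the route, Mvd and Pmvk rose. Pmvk phosphorylates phosphomevalonate and Mvd then decarboxylates the product. Pmvk was at 8.75, 8.83 and 8.78 after withdrawal and at 8.16, 8.45 and 8.36 under doxycycline, a rise of 0.47 ± 0.09 (1.38-fold, limma adjusted p = 0.0462). Mvd was at 9.33, 9.38 and 9.24 after withdrawal and at 8.81, 8.91 and 8.91 under doxycycline, a rise of 0.44 ± 0.07 (1.36-fold, limma adjusted p = 0.0272). The second probe set of Mvd also rose, by 0.48 (limma adjusted p = 0.0393). The call of Pmvk was lost whichever array was left out (limma adjusted p from 0.0825 to 0.174), and that of Mvd in 5 of these 6 fits, all but the one without withdrawal replicate 3 (limma adjusted p from 0.0414 to 0.125).

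Hmgcs1, the synthase that makes HMG-CoA and whose upstream bases held the SRE letters, differed little. Its values were 11.53, 11.50 and 11.47 after withdrawal and 11.33, 11.36 and 11.39 under doxycycline, so the groups were apart, but the difference of 0.14 had a 95% interval from -0.003 to 0.29 (limma adjusted p = 0.362). All 5 of its probe sets lay above 0, from 0.05 to 0.14. Idi1, the isopentenyl diphosphate isomerase, differed by 0.14, Mvk, the mevalonate kinase, by 0.25 and Fdps, the farnesyl diphosphate synthase, by 0.36, and none of them passed.

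At the squalene steps, 0 of 3 enzymes passed, although the differences were of similar size. Fdft1, which joins farnesyl units into squalene, differed by 0.24 ± 0.06 (limma adjusted p = 0.131), Sqle, which adds the epoxide, by 0.30 ± 0.07 (limma adjusted p = 0.0872), and Lss, which closes the rings to lanosterol, by 0.42 ± 0.11 (limma adjusted p = 0.111). Lss had the widest spread of the sterol enzymes, with 9.31, 9.26 and 9.004 after withdrawal and 8.64, 8.90 and 8.77 under doxycycline. The median difference was 0.30 at the squalene steps, 0.31 over the 6 enzymes before them and 0.35 over the 8 after lanosterol, and differences between these stages were not tested.

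**Figure D2:**
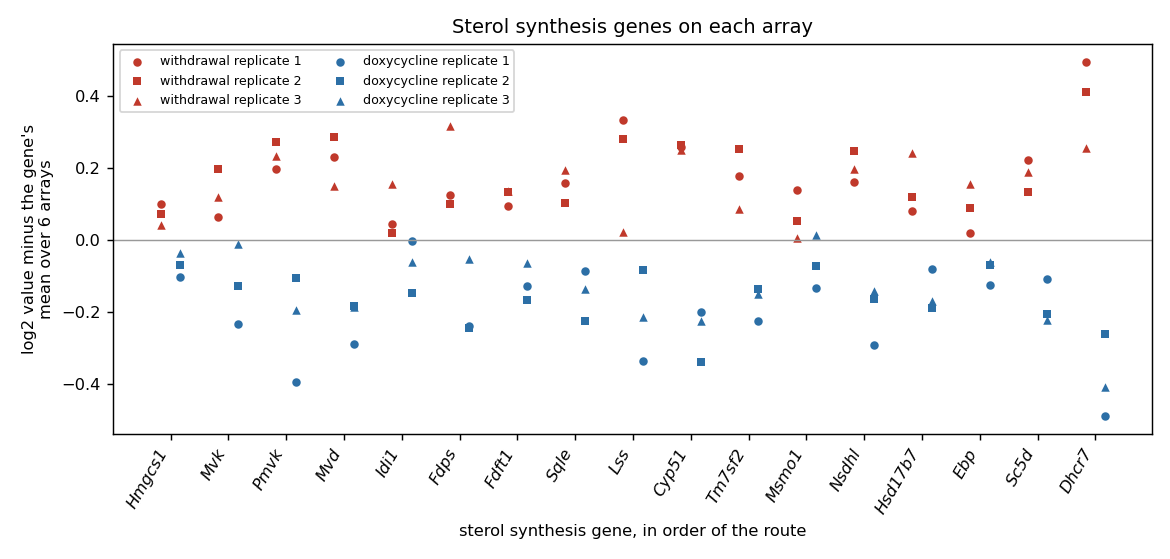
Value of each sterol enzyme on each array, as log2 deviation from the mean of that gene over the 6 arrays, in order of the route from left to right; red is withdrawal, blue is doxycycline and the marker shape gives the replicate. On each of the 3 withdrawal arrays all 17 enzymes lie above their mean, while 0, 0 and 1 do so on doxycycline replicates 1, 2 and 3.

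Across the arrays, the sterol enzymes showed the same split. In 16 of the 17 the 3 withdrawal values were all above the 3 doxycycline values, an arrangement found in 12.4% of all genes. The highest array of a gene was withdrawal replicate 1 for 5 enzymes, replicate 2 for 6 and replicate 3 for 6, whereas the lowest was doxycycline replicate 1 for 10 enzymes, replicate 2 for 6 and replicate 3 for 1. Doxycycline replicate 1 is also an array that lay apart. The mean deviation of the 17 enzymes was 0.17, 0.18 and 0.16 on the withdrawal arrays and -0.21, -0.17 and -0.14 on the doxycycline arrays. Over all 38 probe sets of these enzymes, 36 lay above 0 and 8 rose, where 0.790% of all 45037 probe sets rose.

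The number of sterol enzymes past the threshold depended on single arrays. It was 2, 1 and 3 without withdrawal replicate 1, 2 or 3, and 1, 1 and 0 without doxycycline replicate 1, 2 or 3. Without both arrays that lay apart, withdrawal replicate 3 and doxycycline replicate 1, it was 0, with Dhcr7 at 0.79 (limma adjusted p = 0.0732). The median difference of the 17 enzymes in that fit on 4 arrays was 0.31, and all 17 kept a difference above 0 in each of the 16 alternative fits.

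**Figure D3:**
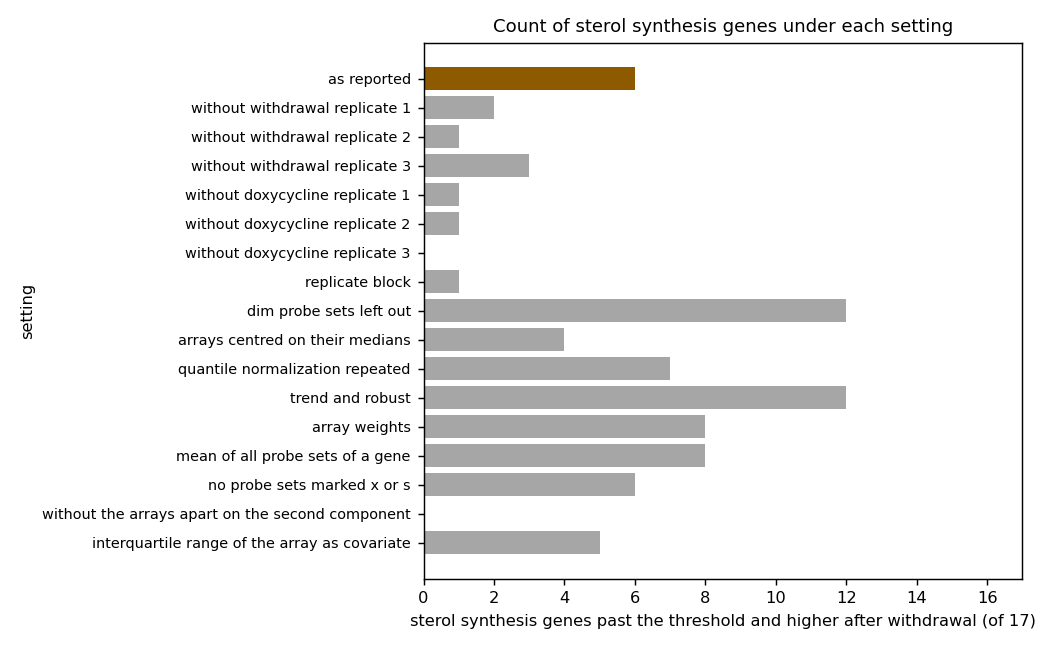
Number of the 17 sterol enzymes that were higher after withdrawal at a limma adjusted p below 0.05, as reported (brown bar) and under each alternative setting (grey bars). The count is 6 as reported, 0 to 3 when 1 array is left out, and 12 when dim probe sets are left out or with trend and robust options.

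Of the genes that control SREBP 3 of 6 lay above 0 and 3 below. Srebf2, which encodes SREBP-2, was the only one of the 6 whose groups did not overlap. Among all genes 12.4% had the withdrawal values all higher and 12.2% all lower. Srebf2 was at 9.31, 9.33 and 9.23 after withdrawal and 9.02, 9.13 and 9.04 under doxycycline. Its difference of 0.23 ± 0.07 did not pass (limma adjusted p = 0.186), and its second probe set differed by 0.20. Insig1, itself a well-known SREBP target, had 9.66, 9.67 and 9.96 after withdrawal and 9.69, 9.44 and 9.33 under doxycycline. These groups overlapped, since doxycycline replicate 1 lay above 2 withdrawal arrays, and the difference of 0.28 ± 0.12 did not pass (limma adjusted p = 0.359).

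Srebf1, which encodes SREBP-1a and SREBP-1c, varied most within groups. Its values were 10.34, 10.31 and 9.98 after withdrawal and 10.11, 10.47 and 10.42 under doxycycline, and the low value in each group came from an array that lay apart. The difference was -0.12, with a 95% interval from -0.43 to 0.18. Scap differed by 0.04, with an interval from -0.17 to 0.25, and Insig2, the close relative of Insig1, by -0.06, with an interval from -0.23 to 0.11. Stard4, a carrier of cholesterol between membranes, differed by -0.04 on the probe set read, and by 0.07 and 0.12 on its other probe sets.

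Among the fatty acid genes 7 of 8 differences lay above 0, as did 9827 of all 18193. While 0 of 8 passed, 3 had an unadjusted limma p below 0.05, as did 2959 of all 18193 genes. Fads2, the first desaturase of polyunsaturated fatty acids, was the tightest, with 9.26, 9.23 and 9.24 after withdrawal and 9.03, 8.98 and 8.99 under doxycycline. Its difference was 0.24 ± 0.06 (limma adjusted p = 0.108), and its other probe sets differed by 0.25 and 0.17. Fasn, the fatty acid synthase, had 10.37, 10.28 and 10.19 after withdrawal and 10.05, 10.09 and 10.05 under doxycycline, a difference of 0.22 ± 0.07 (limma adjusted p = 0.218). Acly, which splits citrate into acetyl-CoA for both lipid routes, differed by 0.23 ± 0.09 (limma adjusted p = 0.273). The groups of all 3 genes were apart without overlap. With Fads1, the withdrawal values were all higher in 4 of the 8 fatty acid genes, against 12.4% of all genes.

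Acaca, the acetyl-CoA carboxylase, differed by 0.16 and Fads1, the next desaturase after FADS2, by 0.10, and neither passed. The desaturase and elongase genes of saturated chains showed the smallest differences. Scd1 had 9.04, 9.10 and 9.14 after withdrawal and 9.01, 9.10 and 9.17 under doxycycline, with a 95% interval of the difference from -0.16 to 0.17. Elovl6, which elongates palmitate, differed by 0.02, with an interval from -0.14 to 0.19. Scd2 differed by -0.06 on its brightest probe set, but its probe sets disagreed in size, since the others differed by -0.51 with groups apart (limma adjusted p = 0.0673) and by -0.08.

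**Figure D4:**
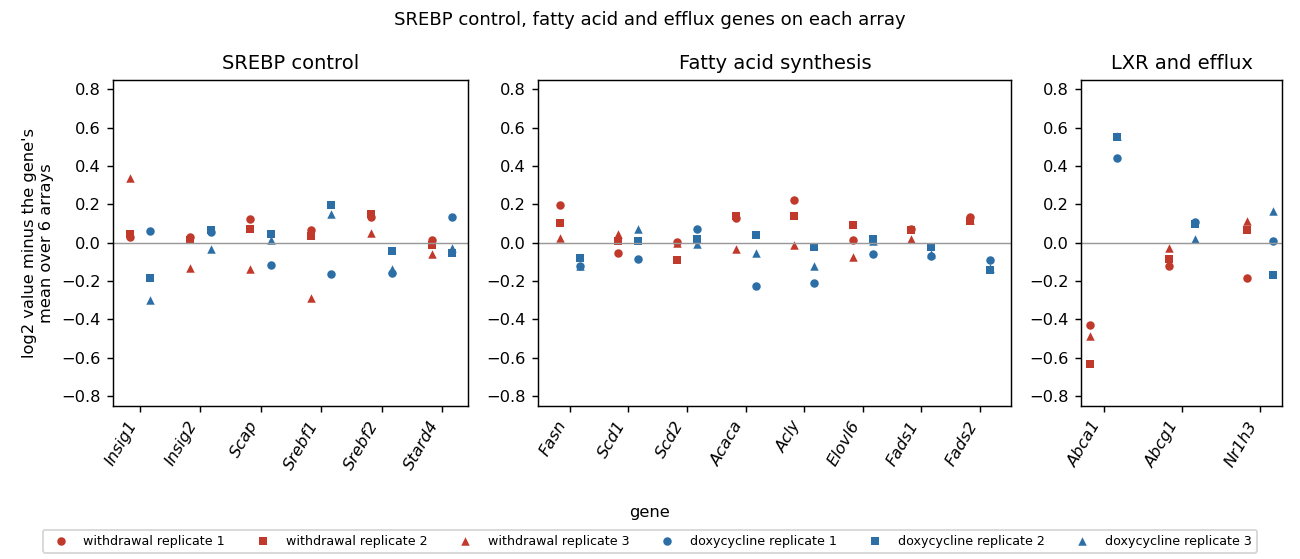
Values of the SREBP control, fatty acid and LXR and efflux genes on each array, as log2 deviation from the mean of that gene over the 6 arrays, with withdrawal in red left of doxycycline in blue. Abca1 is split by about 1 log2 unit (difference -1.03), Fads2 by 0.24 with little spread, and Srebf1 is low on withdrawal replicate 3 and doxycycline replicate 1.

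On the efflux side Abca1, the pump that loads cholesterol onto apolipoprotein particles, fell. It was at 6.83, 6.63 and 6.77 after withdrawal and at 7.70, 7.81 and 7.81 under doxycycline. The groups were far apart, and the difference of -1.03 ± 0.08, 2.04-fold lower after withdrawal, had a limma adjusted p of 0.00116. Of its 3 probe sets the 2 others were dim, at means of 4.13 and 3.04 after withdrawal and 4.25 and 3.25 under doxycycline, and differed by -0.12 and -0.22 without passing, where 1.18% of all probe sets fell. Abca1 passed in all 6 fits that left out 1 array, and with the mean of its 3 probe sets the difference was -0.46 (limma adjusted p = 0.00746).

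Abcg1, the partner pump that passes sterol to high density lipoprotein, was at 9.71, 9.74 and 9.80 after withdrawal and 9.94, 9.92 and 9.85 under doxycycline. The groups were apart, as in 12.2% of all genes in this direction, but the difference of -0.15 ± 0.07 did not pass (limma adjusted p = 0.348), and its second, dimmer probe set differed by 0.13. Nr1h3, which encodes LXR alpha, was at 5.40, 5.64 and 5.69 after withdrawal and 5.59, 5.41 and 5.74 under doxycycline, with overlapping groups and a 95% interval of the difference from -0.27 to 0.26. Neither Abca1 nor Nr1h3 held the letters CCAAT in the bases searched. The consensus direct repeat with a 4-base spacer (DR4) that LXR binds was found before a start of 0 of the 26 genes. It was found before a start of 4 of 27025 genes in the table. Exact matches alone were counted, and they were too rare for the 0 of 26 to be informative. Whether Abca1 holds another form of this repeat was not tested.

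**Figure D5:**
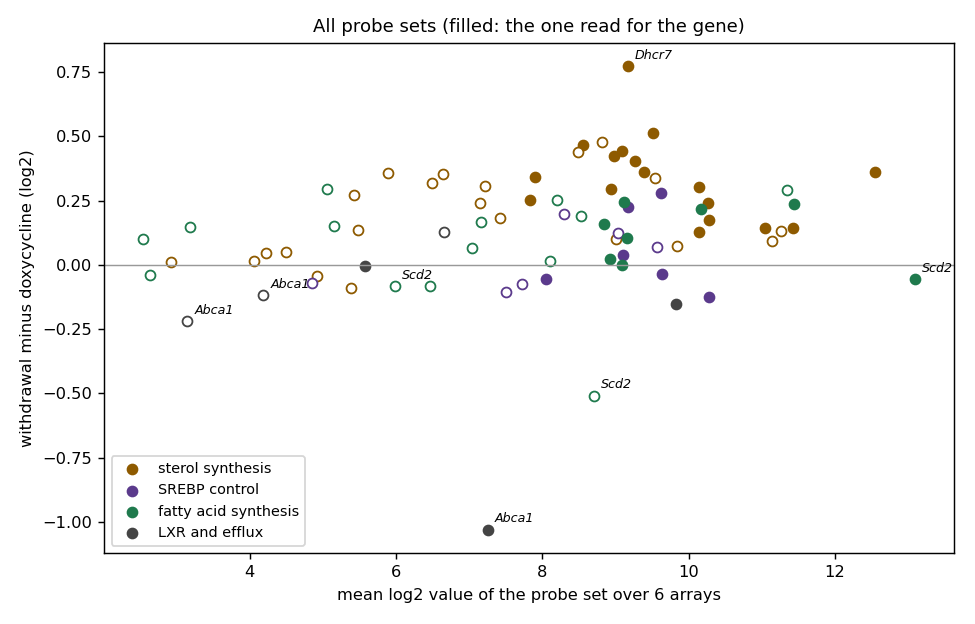
Difference between withdrawal and doxycycline (log2) against the mean level for all 78 probe sets of the 34 genes; filled points are the probe sets read and open points the others. Of 38 probe sets of sterol enzymes 36 lie above 0, and the 3 probe sets each of Abca1 and Scd2, which differ in size, are named.

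A wider list of 65 pathway genes outside these, written from general knowledge, gave 54 measured genes, of which 1 rose and 2 fell, with a median difference of 0.01. Scd3, a stearoyl-CoA desaturase gene that lies next to Scd2 on the same chromosome, fell. Its values were 4.99, 5.25 and 4.91 after withdrawal and 6.35, 6.60 and 6.31 under doxycycline. The difference was -1.37 ± 0.12 (limma adjusted p = 0.00203), and both levels were dim, so the size is uncertain. With the mean of its 2 probe sets the difference of Scd3 was -0.90 (limma adjusted p = 0.00442). Its call was kept without any 1 of the 6 arrays but not without both arrays that lay apart (limma adjusted p = 0.0639), while those of the other 2 genes were lost without any 1 of them. These were Elovl7, a fatty acid elongase, which rose by 0.41 ± 0.07 (limma adjusted p = 0.0324), and Acat1, the mitochondrial thiolase of ketone body and isoleucine metabolism, which fell, with a difference of -0.39 ± 0.07 (limma adjusted p = 0.0427).

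The median differences of the wider lists lay between -0.07 and 0.06. Of 8 further sterol, isoprenoid and ketone body genes 4 lay above 0 and 4 below. Aacs, which activates acetoacetate for lipid synthesis, was at 0.35 ± 0.08 (limma adjusted p = 0.102). Idi2, a relative of Idi1, was at 0.19 with overlapping groups. It was dim, with means of 3.47 after withdrawal and 3.28 under doxycycline. None of 9 genes of SREBP processing and turnover passed, and all 9 differences lay between -0.19 and -0.003, with Prkaa1, a catalytic subunit of AMP-activated kinase, lowest, and Erlin2 at -0.17. None of 10 uptake and transport genes passed, the largest differences being those of Scarb1, a lipoprotein receptor (0.25), and Lrp8 (0.24). Of 21 further fatty acid genes Acsl3, an acyl-CoA synthetase, had -0.41 ± 0.08 (limma adjusted p = 0.0531) and Tecr, the last reductase of the elongation cycle, 0.35 ± 0.09 (limma adjusted p = 0.116). Of 6 LXR partners and targets none passed, with Apoe at -0.13 and Abca7 at 0.09.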

How the data were processed

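Per the labels' protocols, total RNA was amplified into cDNA, which was biotinylated, and each sample went onto 1 array. The authors deposited 1 log2 value per probe set and array, made by RMA per the submitters' processing notes, and the log2 unit was read from the range of the values. RMA is meant to give the arrays a shared distribution and compresses differences of dim transcripts. The deposited arrays still differed in spread, with interquartile ranges from 3.71 (withdrawal replicate 3) to 3.92 (withdrawal replicate 1). The version of RMA is not given in the sources used here.

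Of 45101 rows 64 control probe sets were left out, and 34945 of the other 45037 carried 1 symbol, 932 several and 9160 none. Groups were taken from the titles. The limma package (3.58.1, under R 4.3.3) fitted all 45037 probe sets by lmFit and eBayes with no covariates, and two-sided p-values were adjusted by Benjamini-Hochberg over all of them, with a threshold of 0.05. The steps were tested on simulated data. The genes and lists were chosen with earlier results of these data known, and the rule for names allowed all measured genes, passed genes of the wider lists and up to 2 others of each. Upstream stretches were to be shown for passed genes with an SRE match. There were 0 of these, so the CCAAT stretches and Hmgcs1 were chosen after the matches were seen. Symbols and promoters came from RefSeq tables of GRCm38.p6. The 14 planned and 2 added alternatives are given at the end. Python 3.11.15 with matplotlib 3.10.9 made the figures.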

Additional observations from a re-analysis of the deposited data

How the results depend on the processing

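With each array omitted in turn there were 0 to 3 rising sterol enzymes, and 0 to 3 rising genes over all 34, in place of 6. Without both arrays that lay apart, a choice made after seeing the data, both counts were 0. These fits hold fewer samples, and over all genes the settings tried gave 22 to 634 rising and 55 to 732 falling genes. With dim probe sets left out, 12 sterol enzymes, 1 fatty acid gene and 13 genes in all rose. With trend and robust options 12 sterol enzymes, 1 SREBP control gene (Srebf2), 2 fatty acid genes (Fasn and Fads2) and 15 genes in all rose. The cause of these increases was not tested. Whether the replicate numbers pair the arrays is not given in the labels. The deviations of same-numbered arrays correlated at -0.15, 0.21 and 0.02, which cannot decide it with 3 arrays a group. With the replicate block 1 sterol enzyme and 1 gene in all rose, Dhcr7 (limma adjusted p = 0.0461), and Pmvk, Mvd, Cyp51, Nsdhl and Sc5d had limma adjusted p of 0.0684 to 0.125. Centring on medians left 4 rising sterol enzymes and repeated quantile normalization 7. Array weights gave 8, as did the mean of the probe sets of a gene. Leaving out probe sets whose names end in x_at or s_at gave 6. The interquartile range as a covariate, also added later, gave 5. The fall of Abca1 passed in all 16 alternatives, and no called gene changed direction. Dim probe sets, such as those of Scd3 and Nr1h3, limit how well sizes are known.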

Other observations

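Slc44a1, a choline transporter gene listed next to Abca1 on its chromosome, also fell, with mean log2 levels of 6.35 after withdrawal and 6.92 under doxycycline and a difference of -0.57 ± 0.07 (limma adjusted p = 0.00978). The gene on the other side, Nipsnap3b, differed by 0.03. Around Scd3, Pkd2l1 on one side differed by -0.43 (limma adjusted p = 0.118) and Scd2 on the other by -0.06. These neighbours were looked up after the values of Abca1 and Scd3 had been seen, and no link between them was tested.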
